A study of Mus musculus with 18 samples.

Results

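The 10 genes described here, Dclk1, Trpm5, Gnat3, Gng13, Il25, Alox5ap, Ltc4s, Ptgs1, Rgs13 and Avil, are genes that intestinal tuft cells are known to express, chosen by name from 32286 measured features. Their UMIs (unique molecular identifiers, each standing for 1 captured mRNA molecule) were followed in 8 single-cell RNA-seq libraries of sorted mouse ileal crypt cells. Barcodes were kept with at least 1000 UMIs in the Lgr5+ libraries or 500 in the lineage-traced libraries, at most 18000 UMIs, and under 5% of UMIs from mitochondrial genes, which left 52015 cells. Of these, 928 were called tuft cells from 19 other tuft cell markers, so that none of the 10 genes took part in the call.

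Tuft cells are rare chemosensory cells of the intestinal epithelium. They sense luminal metabolites with a G protein cascade borrowed from taste cells, in which a taste G protein acts through phospholipase C and intracellular calcium to open the cation channel Trpm5. In response they release the cytokine Il25, which acts on type 2 innate lymphoid cells, and lipid mediators made from arachidonic acid, the cysteinyl leukotrienes and prostaglandins.

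Every mouse carried the Lgr5-GFP-CreERT2 allele, in which the promoter of the stem cell gene Lgr5 drives both GFP and the tamoxifen-inducible Cre, and every mouse received tamoxifen (a single injection of 70 mg/kg) and was used on day 5, at an age of 60 to 65 days and on a C57Bl6 background. The WT mice carried Lgr5-GFP-CreERT2 alone and the Setdb1-KO mice carried it with Setdb1lox/lox, so that Setdb1, a histone H3 lysine 9 methyltransferase, was deleted in cells in which the Lgr5 promoter had been active. In the Lgr5+ libraries, cells were sorted on the GFP of the Lgr5 allele. The paper counts the tuft cells of this sort among co-purified cells outside the GFP-expressing ones. It explains them by the gating used and by incomplete enrichment. They are thus not shown to descend from cells in which Cre acted, and Setdb1-KO names the genotype of the mouse. The lineage-traced libraries came from mice that also carried the nTnG reporter, in which Cre switches a nuclear red protein to nuclear GFP, and hold the progeny of recombined cells. Each of the 4 groups had 2 libraries, which the study's methods describe as biological replicates, and p-values measure the spread between these libraries.

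The libraries held 16881518 to 81876035 UMIs, with 25218 kept cells in the Lgr5+ and 26797 in the lineage-traced libraries. The median tuft cell had 3320 to 6692 UMIs in the Lgr5+ libraries but 1073 to 1706 in the lineage-traced libraries. Lineage-traced WT 2 held only 14 tuft cells. Setdb1 itself was lower over all kept cells of the Lgr5+ Setdb1-KO libraries (log2 fold change −0.85 ± 0.14 SE, edgeR adjusted p = 0.047) and did not pass the test in the lineage-traced ones (0.24 ± 0.23, adjusted p = 0.60), but 3′ counts lie outside the floxed exon and do not check the deletion. Any 2 libraries shared 3 to 34 barcodes, and 0 shared barcodes were tuft cells in both. RNA of Paneth cells differed strongly between genotypes in the lineage-traced libraries: its markers summed to 322826 and 295815 UMIs per 1000000 (CPM) over all kept WT cells against 69965 and 47240 CPM in Setdb1-KO.

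The tuft calls rest on their markers, so the shares of called cells with each marker are a description. The median marker was found in 53.8% of Lgr5+ and 33.2% of lineage-traced tuft cells. Pou2f3, the transcription factor that specifies tuft cells, had a UMI in 30.5% and 11.4% of them and Sh2d6, a tuft cell adaptor protein, in 81.1% and 62.3%. When all cells were clustered without the 10 genes, 637 of 639 Lgr5+ tuft cells fell in 1 tuft cluster of 803 cells. In the lineage-traced sort 278 of 289 tuft cells fell in 1 of 558 cells. The markers of the tuft call were not left out of this clustering, and the tuft clusters were those richest in their UMIs. The overlap of call and cluster is therefore a description too, not an independent check of the call. The lineage-traced tuft cells also carried RNA of Paneth cells, whose markers summed to 82706 and 127760 CPM in WT and to 12109 and 23772 CPM in Setdb1-KO tuft cells, against 2719 to 6334 CPM in the Lgr5+ tuft cells. Of the lineage-traced tuft cells, 49 of 61 and 9 of 14 in WT and 36 of 38 and 170 of 176 in Setdb1-KO met the call of no other class. In the Lgr5+ sort these were 85 of 88 and 143 of 146 in WT and 102 of 104 and 297 of 301 in Setdb1-KO. The part of RNA of other classes in the values below was not tested.

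Promoter sequence from RefSeq was used for 8 of the 10 genes, with 10 windows in all, each from 250 bases before to 50 bases after a transcription start in build GRCm38.p6. The promoters of Alox5ap and Il25 were not analysed here. Spelled out, the octamer bound by POU factors such as Pou2f3 (ATGCAAAT, or ATTTGCAT on the other strand) stood in 0 of the 10 windows and in 1.74% of 32851 promoters. Its first letters alone (ATGCAAA or TTTGCAT) stood in 1 window, that of Avil, and in 4.63% of promoters. A purine-rich core bound by ETS factors such as Spib (GAGGAAG or CTTCCTC) stood in the windows of Ptgs1 and Ltc4s and in 13.6% of promoters. The windows with a match are shown, with the matching letters in capitals, together with the upstream start of Gng13, which had no match and whose level differed most clearly between the sorts. A match is a string of letters and not evidence of binding.
Ptgs1, chr2:36230176-36230475, plus strand: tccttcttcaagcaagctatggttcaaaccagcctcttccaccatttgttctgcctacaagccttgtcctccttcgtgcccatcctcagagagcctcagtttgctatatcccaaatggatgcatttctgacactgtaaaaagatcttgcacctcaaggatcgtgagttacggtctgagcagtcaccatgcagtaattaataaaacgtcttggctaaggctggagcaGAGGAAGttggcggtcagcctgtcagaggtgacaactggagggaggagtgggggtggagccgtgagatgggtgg
Ltc4s, chr11:50238483-50238782, minus strand: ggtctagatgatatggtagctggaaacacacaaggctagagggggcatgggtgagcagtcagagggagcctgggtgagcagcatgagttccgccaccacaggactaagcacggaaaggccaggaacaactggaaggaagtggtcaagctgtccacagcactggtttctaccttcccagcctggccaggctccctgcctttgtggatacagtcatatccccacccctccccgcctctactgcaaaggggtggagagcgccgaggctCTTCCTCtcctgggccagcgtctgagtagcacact
Avil, chr10:127000459-127000758, plus strand: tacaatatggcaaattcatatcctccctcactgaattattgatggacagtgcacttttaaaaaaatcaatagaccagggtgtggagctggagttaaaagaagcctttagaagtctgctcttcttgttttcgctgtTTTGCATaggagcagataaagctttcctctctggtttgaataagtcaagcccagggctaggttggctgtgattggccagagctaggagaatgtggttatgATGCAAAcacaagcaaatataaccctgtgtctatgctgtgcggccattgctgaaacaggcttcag
Gng13, chr17:25716922-25717221, plus strand: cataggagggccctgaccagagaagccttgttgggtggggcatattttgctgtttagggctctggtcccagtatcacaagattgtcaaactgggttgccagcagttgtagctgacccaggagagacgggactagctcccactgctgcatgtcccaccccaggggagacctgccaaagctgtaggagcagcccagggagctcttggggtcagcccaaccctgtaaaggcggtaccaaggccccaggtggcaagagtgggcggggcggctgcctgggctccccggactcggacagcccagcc
The Ptgs1 match began at position −24 in the direction of the gene and the Ltc4s match at position 15, on the opposite strand, counted from the transcription start. Avil held both orientations of the shortened octamer, at −115 and −15. The windows ranged from 36.7% G and C in Rgs13 to 72.0% at the downstream start of Gng13.

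The 10 genes covered a wide range of levels within tuft cells. Over the pooled Lgr5+ tuft cells Rgs13 was highest (1794 CPM), followed by Alox5ap (1375), Ltc4s (1062), Dclk1 (740.4), Avil (718), Gng13 (365), Trpm5 (228), Ptgs1 (106), Il25 (24.3) and Gnat3 (18.0). These are counts of molecules from the 3′ end and do not scale with transcript length. Between neighbours in this order, the library ranges of Dclk1 and Avil overlapped, as did those of Il25 and Gnat3, of Rgs13 and Alox5ap, and of Alox5ap and Ltc4s. In the Lgr5+ sort the genes thus fell into an abundant set led by Rgs13, an intermediate set of Gng13, Trpm5 and Ptgs1, and Il25 and Gnat3 at few UMIs per library. Over the pooled lineage-traced tuft cells the order differed. Alox5ap (1006 CPM) was above Rgs13 (830), and Gng13 (801) was above Ltc4s (765), Dclk1 (713) and Avil (439). This pooled order did not hold in every library. In lineage-traced Setdb1-KO 1 alone, Alox5ap and Rgs13 were level at 1209.6 CPM. In lineage-traced Setdb1-KO 2 alone, Ltc4s (829 CPM) was above Gng13 (799.9 CPM).

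**Figure D1:**
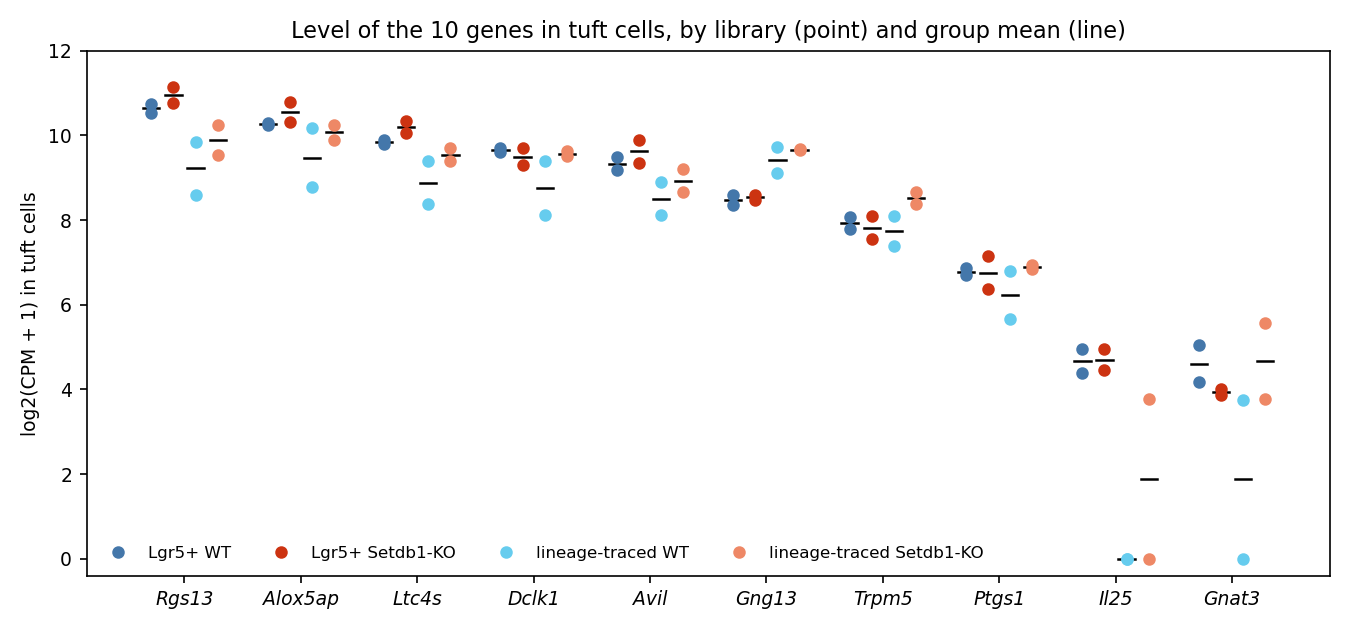
Level of each of the 10 genes in tuft cells, as log2(CPM + 1), with 1 point per library and a line at the mean of the 2 libraries of each group. Rgs13, Alox5ap and Ltc4s sit at the top in the Lgr5+ groups, Il25 and Gnat3 at the bottom, and Il25 was at 0 in 3 of the 4 lineage-traced libraries.

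Gng13, the gamma subunit of the taste G protein, stood at 383 and 329 CPM in tuft cells of Lgr5+ WT 1 and 2, and at 357 and 382 CPM in Lgr5+ Setdb1-KO 1 and 2. In lineage-traced tuft cells it stood at 849 and 551 CPM in WT and at 815 and 799.9 CPM in Setdb1-KO. All 4 lineage-traced libraries were above all 4 Lgr5+ libraries, and within either sort the genotypes overlapped. Trpm5, the channel that ends the cascade, was measured at 269.7 and 221 CPM in Lgr5+ WT and 271 and 187 CPM in Lgr5+ Setdb1-KO tuft cells. Its lineage-traced levels were 275 and 165 CPM in WT and 407 and 333 CPM in Setdb1-KO, where the Setdb1-KO libraries were the higher ones. Gnat3, the alpha subunit gustducin, was barely detected. It had 17 and 12 UMIs in Lgr5+ WT tuft cells (32.1 and 17.0 CPM), 10 and 18 in Lgr5+ Setdb1-KO (13.7 and 15.0 CPM), 1 and 0 in lineage-traced WT, and 1 and 16 in lineage-traced Setdb1-KO (12.7 and 46.4 CPM).

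Of the eicosanoid genes, Alox5ap, the protein that presents arachidonic acid to 5-lipoxygenase, stood at 1250.2 and 1204 CPM in Lgr5+ WT and 1780.4 and 1284 CPM in Lgr5+ Setdb1-KO tuft cells. Its lineage-traced levels were 1148 and 441 CPM in WT and 1209.6 and 956 CPM in Setdb1-KO. The genotypes did not overlap in the Lgr5+ sort and overlapped in the lineage-traced sort. Ltc4s, the synthase that conjugates leukotriene A4 to glutathione, stood at 954 and 891 CPM in Lgr5+ WT and at 1299 and 1066 CPM in Lgr5+ Setdb1-KO tuft cells. In lineage-traced tuft cells it reached 674 and 330.4 CPM in WT and 675 and 829 CPM in Setdb1-KO. Ltc4s was therefore higher in both Setdb1-KO libraries of either sort, in the lineage-traced sort by the narrowest of margins. Ptgs1, the cyclooxygenase that starts prostaglandin synthesis, was about an order of magnitude less abundant, at 104 and 115 CPM in Lgr5+ WT and 141 and 81.6 CPM in Lgr5+ Setdb1-KO. In the lineage-traced libraries it rested on 4 and 2 UMIs in WT and 9 and 42 UMIs in Setdb1-KO tuft cells.

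Il25, the tuft cell cytokine, had 16 and 14 UMIs in Lgr5+ WT (30.2 and 19.9 CPM) and 22 and 25 UMIs in Lgr5+ Setdb1-KO tuft cells (30.1 and 20.8 CPM). In the lineage-traced tuft cells 1 UMI was counted, in Setdb1-KO 1. The 2 Lgr5+ genotypes spanned nearly the same range. Il25 was found in 10.2% of Lgr5+ tuft cells, and 62 of these 65 cells also had a Dclk1 UMI. The Il25-positive cells were more deeply sequenced, with a median of 5309 UMIs against 3988 in the others.

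Dclk1, a microtubule-associated kinase and the usual histological marker of tuft cells, stood at 829.7 and 774 CPM in Lgr5+ WT and 827 and 629 CPM in Lgr5+ Setdb1-KO tuft cells. Rgs13, which accelerates the inactivation of G proteins, stood at 1718 and 1486 CPM in Lgr5+ WT and at 2253 and 1728 CPM in Lgr5+ Setdb1-KO. Avil, the actin-binding protein advillin of the apical tuft, stood at 713 and 583 CPM and at 955 and 656 CPM. In the Lgr5+ sort only Rgs13 of these 3 genes had no overlap between genotypes. The share of all genes without overlap was not computed, so nothing particular to a gene is read from the overlaps given here and above. In the lineage-traced tuft cells Dclk1 was counted at 674 and 275 CPM in WT and 789 and 727 CPM in Setdb1-KO, Rgs13 at 924 and 385 CPM and at 1209.6 and 745 CPM, and Avil at 474 and 275 CPM and at 586 and 406 CPM. Lineage-traced WT 2, the library of 14 tuft cells, was the lowest of the 8 for all 3 genes.

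The share of tuft cells with at least 1 UMI followed the same order within the Lgr5+ sort with small exchanges: 91.4% for Ltc4s, 90.8% for Rgs13, 90.0% for Avil, 88.9% for Alox5ap, 84.2% for Dclk1, 58.2% for Gng13, 56.8% for Trpm5, 30.8% for Ptgs1, 10.2% for Il25 and 5.63% for Gnat3. In lineage-traced tuft cells, which are shallower, the shares ran from 61.6% for Dclk1 to 0.346% for Il25. With every cell thinned to 500 UMIs, which no tuft cell fell short of, the shares of both sorts rested on the same depth. The Paneth cell RNA of lineage-traced tuft cells was still part of these UMIs. Pooled over libraries, Rgs13 was then found in 53.2% of 639 Lgr5+ and 27.0% of 289 lineage-traced tuft cells, Alox5ap in 47.6% and 27.7%, Ltc4s in 39.0% and 25.3%, and Avil in 29.0% and 16.3%. For these 4 genes every Lgr5+ library lay above every lineage-traced one. The share of all genes that separate the sorts in this way was not computed, so nothing particular to the 4 genes is read from it. Gng13 had pooled shares of 17.4% and 24.6% and Trpm5 of 10.95% and 18.3%, but their libraries overlapped, with 15.8% to 18.3% against 13.2% to 27.9% for Gng13 and 9.30% to 17.0% against 7.14% to 20.5% for Trpm5. Of the 289 lineage-traced tuft cells 176 came from Setdb1-KO 2. Il25 was found in 7 thinned Lgr5+ tuft cells and in 0 of 289 lineage-traced ones, which allows a share of cells with a UMI of up to 1.04% by counting error alone. Without thinning 1 of the 289 had a UMI, so no difference in Il25 is read from these shares.

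Several of the 10 genes were found together in single tuft cells. The median Lgr5+ tuft cell had UMIs of 6 of the 10 and the median lineage-traced tuft cell of 4. At least 5 genes were found in 84.5% and 36.7% of them, against 0.293% and 0.174% of all other cells, and 0 cells had all 10. Across the 639 Lgr5+ tuft cells, which share libraries and differ in depth, Alox5ap went with Ltc4s (Pearson r = 0.52 of log2(UMIs per 10000 + 1)) and with Rgs13 (r = 0.50), and Ltc4s with Rgs13 (r = 0.43). The same pairs had r = 0.30, 0.37 and 0.40 over the 289 lineage-traced tuft cells. Gng13 had r from −0.09 to 0.08 with the other 9 genes in the Lgr5+ sort.

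Outside tuft cells the 10 genes were scarce in the Lgr5+ libraries. Tuft cells, a small minority of the cells, held 73.1% (Ltc4s) to 92.8% (Il25) of each gene's UMIs there. Ltc4s was the exception. In enterocytes it stood at 19.9 CPM (17.7 to 23.0 over libraries), with a UMI in 11.1% of 1670 cells, against 1.43% of goblet, 2.16% of Paneth, 3.00% of stem and 3.88% of dividing cells and 4.36% of cells given no class. The median depth was 6714 UMIs in enterocytes, 5142 in goblet and 11410 in Paneth cells. Enterocytes held 253 UMIs of Ltc4s and 49 of Rgs13, while tuft cells held 3362 and 5678. The part of free RNA in the enterocyte value was not tested. Rgs13 was found in 1.02% of enterocytes and in 0.744% of goblet cells. Enteroendocrine cells held Rgs13 at 15.2 CPM, but its 59 UMIs lay in 8 of 944 cells. Barcodes of 10 to 100 UMIs, which mostly hold free RNA, carried Ltc4s at 10.4 to 33.3 CPM in the 4 Lgr5+ libraries, a range that takes in its enterocyte level, on 3 UMIs in 3 of them. In the lineage-traced libraries the called tuft cells held less of the UMIs, such as 35.3% of those of Gng13, and the 9453 cells given no class held a further 37.2% of them. In those cells Gng13 stood at 23.5 CPM and was found in 2.50% of cells, Ltc4s stood at 17.9 CPM and Alox5ap at 17.4 CPM. The call took in 278 of the 558 cells of the tuft cluster there, against 637 of 803 in the Lgr5+ sort. How much of these UMIs lay in uncalled tuft cells was not tested.

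**Figure D2:**
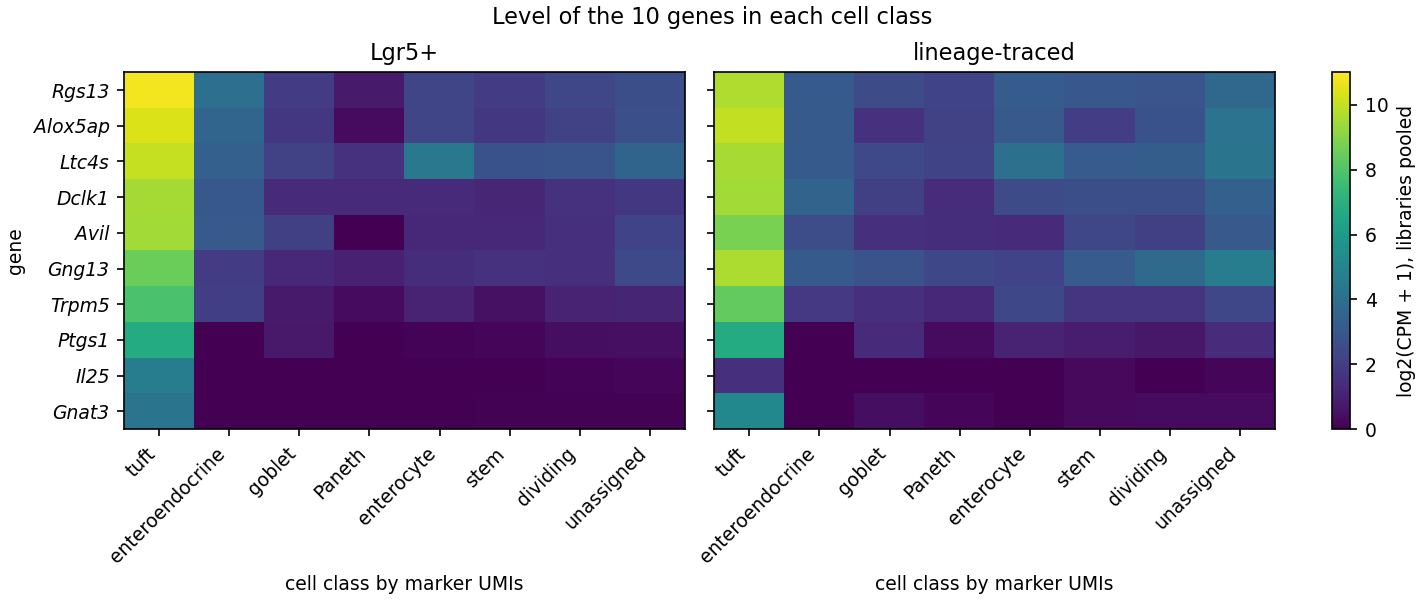
Level of each of the 10 genes in each cell class called by marker UMIs, as log2(CPM + 1) over the pooled libraries of the Lgr5+ (left) and lineage-traced (right) sorts. The tuft column stands out for every gene with the exception of Il25 in the lineage-traced sort, where Ltc4s in enterocytes stood at 15.7 CPM.

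Tuft cells of Setdb1-KO mice were compared with those of WT mice first, to ask whether the program inside a tuft cell differed. For Lgr5+ tuft cells, which the paper counts as co-purified, deletion of Setdb1 was not tested. Setdb1 itself had a log2 fold change of −1.81 ± 0.52 SE in them (edgeR adjusted p = 0.36). In the Lgr5+ sort 0 of the 10 genes passed an adjusted p of 0.05 with edgeR's quasi-likelihood test on UMIs summed per library, where 0.266% of 6397 tested genes did (17 genes), and 1 of the 10 had an unadjusted p under 0.05, as did 7.02% of all tested genes. DESeq2 called 0. The largest estimate among the higher genes was that of Ltc4s (log2 fold change 0.39 ± 0.17 SE, adjusted p = 0.68), with Alox5ap (0.35 ± 0.18), Rgs13 (0.35 ± 0.18) and Avil (0.34 ± 0.19) close to it. Gng13 (0.10), Il25 (0.05), Ptgs1 (0.01), Trpm5 (−0.08) and Dclk1 (−0.11) lay near 0. Gnat3 had −0.67 ± 0.42 (adjusted p = 0.84), on 10 to 18 UMIs per library. The median over the 10 was 0.07, against −0.00 over all tested genes.

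In the lineage-traced sort 7 of the 10 genes had enough UMIs for the test, and 0 of them passed it, where 1.62% of 987 tested genes did. All 16 of those genes were lower in Setdb1-KO. The estimates of the 7 genes ran from −0.08 ± 0.26 (Gng13) to 0.39 ± 0.37 (Trpm5), with adjusted p from 0.84 upwards and 0 calls by DESeq2. An unadjusted p under 0.05 was found for 0 of the 7, and for 7.90% of all tested genes. With 14 tuft cells in 1 WT library, the standard errors of 0.26 to 0.38 could hide changes of the size seen in the Lgr5+ sort. Ptgs1, Gnat3 and Il25 were not tested there.

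The genotype effect itself was compared between the sorts by an interaction term over all 8 libraries. 0 of the 10 genes passed, where 0.607% of 5931 did (36 genes), and DESeq2 called 0. Gnat3 had the smallest unadjusted p (0.046), with an effect that was higher by 2.68 ± 1.34 SE on the log2 scale in the lineage-traced sort (edgeR adjusted p = 0.68). Il25 rested on 1 lineage-traced UMI.

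Over all kept cells of a library the picture in the lineage-traced sort was different: 7 of the 8 genes with enough UMIs were higher in Setdb1-KO, where 1.54% of 12205 tested genes were called higher and 8.73% were called in either direction. A sum over all cells cannot by itself tell more tuft cells from more RNA of these genes per cell. Gng13 had 6.79 and 8.91 CPM in the WT and 28.0 and 27.3 CPM in the Setdb1-KO libraries, and rose by a log2 fold change of 1.31 ± 0.24 SE (edgeR adjusted p = 0.0040). Dclk1 had 5.54 and 2.85 CPM against 15.3 and 16.5 CPM and rose by 1.35 ± 0.28 (edgeR adjusted p = 0.0077). Rgs13 had 7.68 and 5.94 CPM against 23.0 and 18.6 CPM and rose by 1.05 ± 0.22 (edgeR adjusted p = 0.0089). In CPM, which is scaled by library size alone, both Setdb1-KO libraries were at least at 2 times the level of the WT libraries in each of these genes. On that scale the median log2 fold change of all tested genes was 0.54. The share of all genes at 2 times or more was not computed, so nothing particular to these genes is read from it.

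Ptgs1 had the largest estimate, 1.74 ± 0.41, from 0.470 and 0.866 CPM in WT to 3.11 and 2.69 CPM in Setdb1-KO (edgeR adjusted p = 0.018). Avil went from 4.34 and 2.23 CPM to 12.4 and 9.87 CPM (1.14 ± 0.27, edgeR adjusted p = 0.017) and Alox5ap from 8.31 and 5.81 CPM to 18.7 and 24.8 CPM (1.11 ± 0.27, edgeR adjusted p = 0.021). Trpm5 passed most narrowly, with 2.61 and 2.72 CPM against 6.67 and 7.55 CPM (0.94 ± 0.26, edgeR adjusted p = 0.044). Ltc4s did not pass, with 8.0 and 8.04 CPM in WT and 15.9 and 25.2 CPM in Setdb1-KO (0.89 ± 0.29, edgeR adjusted p = 0.088). Gnat3 and Il25 were too sparse to test. The median over the 8 was 1.13, against 0.01 over all tested genes, and Paneth cell RNA was lower in the Setdb1-KO libraries, as given above. Its part in these values was not tested.

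The fold changes were set on edgeR's TMM scale. Scaled by library size alone, the median of all tested genes moved by 0.52 on the log2 scale and 87.1% of 3807 called genes were higher, against 17.6% of 1066 with TMM. The 8 genes then all passed, as did 31.2% of all genes, with a median of 1.64 over the 8. The count among the 8 depended on the tool and on single libraries. DESeq2 called 5, without Ptgs1 and Trpm5 (6.05% of all genes), and a mitochondrial limit of 10% gave 6, without Trpm5 (9.89% of all genes). Without WT 1, 3 passed (Dclk1, Alox5ap and Avil, with 4.91% of all genes), and without WT 2, 2 passed (Ptgs1 and Gng13, with 6.03%). Without Setdb1-KO 2, 5 passed, with Trpm5 and Alox5ap lost (9.01% of all genes).

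In the Lgr5+ sort 0 of the 10 genes passed over all kept cells, where 1.34% of 13662 genes were called, but 9 of the 10 had a higher estimate, as did 48.9% of all tested genes, and 5 had an unadjusted p under 0.05, as did 17.5% of all tested genes. Gng13 had 6.96 and 7.23 CPM in WT and 10.8 and 10.7 CPM in Setdb1-KO, with replicates that lay close together (0.61 ± 0.12, edgeR adjusted p = 0.068). Rgs13 had 26.5 and 28.3 CPM against 62.2 and 39.2 CPM (0.88 ± 0.18, edgeR adjusted p = 0.070). The largest estimate was that of Alox5ap, 0.90 ± 0.22, from 19.04 and 23.4 CPM to 50.4 and 29.9 CPM. For the last 2 genes Setdb1-KO 1 was the highest library by far. DESeq2 called 4 of the 10 (Rgs13, Avil, Ltc4s and Gng13), where it called 3.67% of all genes, and the test without Setdb1-KO 2 called 4 as well (Rgs13, Alox5ap, Avil and Ltc4s), with 3.75% of all genes. Gnat3 had an estimate of −0.12 ± 0.39.

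**Figure D3:**
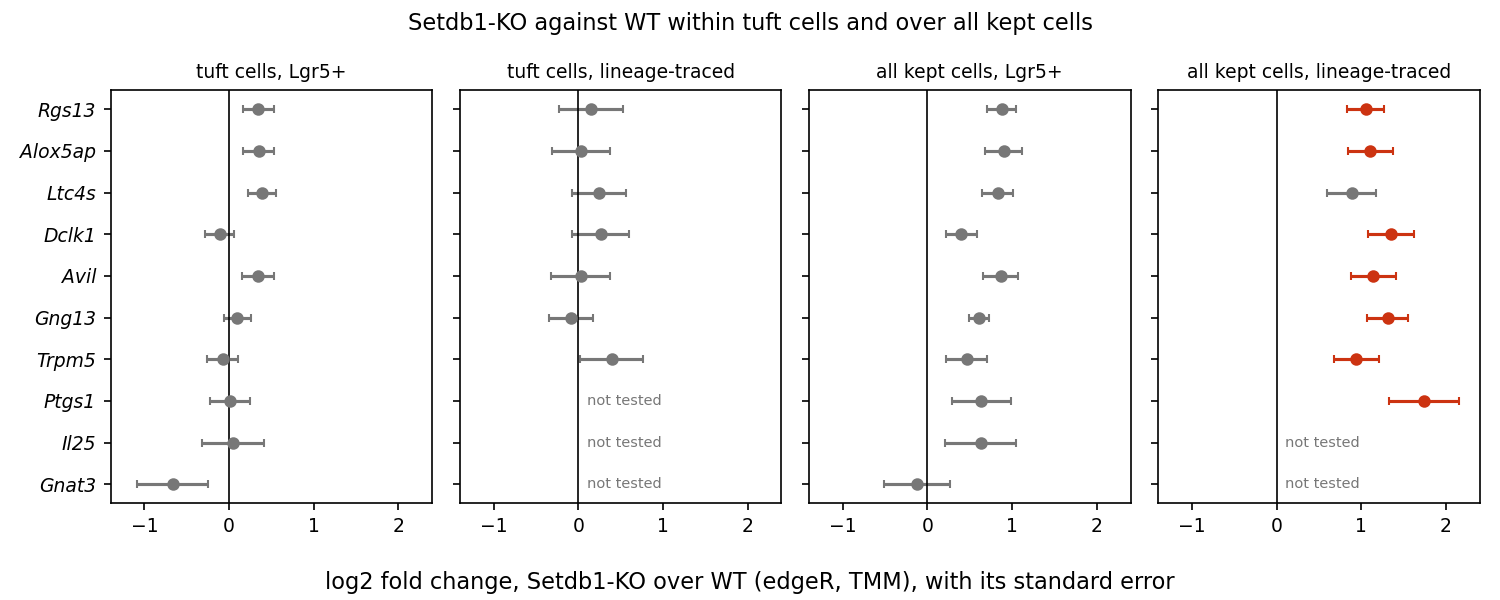
Log2 fold change of Setdb1-KO over WT from edgeR with its standard error, within tuft cells and over all kept cells, for the Lgr5+ and lineage-traced sorts. Over all kept lineage-traced cells the 8 tested genes sit between 0.89 and 1.74, while within tuft cells of the same sort the 7 tested genes sit between −0.08 and 0.39.

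The tuft share of the kept cells was 1.85% and 2.38% in Lgr5+ WT and 3.59% and 2.64% in Lgr5+ Setdb1-KO. In the lineage-traced sort it was 0.776% and 0.361% in WT and 0.789% and 1.72% in Setdb1-KO. Neither pair of genotypes overlapped, and the differences of 1.00 and 0.686 percentage points each had p = 0.333 in a two-sided exact permutation test, the smallest p that 2 libraries against 2 allow. By tuft clusters the shares were 2.22% and 3.03% in Lgr5+ WT and 3.97% and 3.47% in Lgr5+ Setdb1-KO. In the lineage-traced sort they were 1.26% and 0.592% in WT and 2.08% and 3.28% in Setdb1-KO. The marker call depends on depth, and lineage-traced Setdb1-KO 2 had the highest median of its sort, 2085 UMIs per kept cell. The part of depth in the shares was not tested. Within tuft cells 0 of the genes had passed, as given above.

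The same test was then made on cells other than tuft cells. With the called tuft cells left out, Dclk1 (1.11 ± 0.24, edgeR adjusted p = 0.012) and Gng13 (1.36 ± 0.34, edgeR adjusted p = 0.027) still passed in the lineage-traced sort, where 8.55% of 12194 genes did, and the median over the 8 tested genes was 0.94. With the wider tuft clusters left out too, 0 of the 7 tested genes passed, where 8.72% of all genes did, the lowest adjusted p was 0.13 and the median was 0.44. The estimates that lost their call were not all small: Dclk1 had 0.91 ± 0.34, Gng13 0.78 ± 0.41 and Avil 0.71 ± 0.35, while Ptgs1 had too few UMIs left to be tested. The summed level of the 10 genes in lineage-traced cells was 44.0 and 37.5 CPM in WT and 124 and 133 CPM in Setdb1-KO over all kept cells. It was 22.8 and 31.9 against 73.4 and 70.2 CPM without called tuft cells, and 14.0 and 24.8 against 44.3 and 30.7 CPM without the tuft clusters as well. At each step the lineage-traced Setdb1-KO libraries lay above the WT libraries. These sums are scaled by library size alone. On that scale the median log2 fold change of all tested genes was 0.54 over all kept lineage-traced cells, so nothing particular to the 10 genes is read from this order. In the Lgr5+ sort the sums were 101 and 116 against 229 and 147 CPM over all kept cells, 15.1 and 20.07 against 20.02 and 29.1 CPM without called tuft cells, where the genotypes overlapped, and 6.99 and 9.17 against 13.9 and 13.5 CPM once both sets were left out. The median log2 fold change was 0.63 over 10, 0.52 over 8 and 0.73 over 7 tested genes in these 3 steps, with 0 of the 10 genes passing at each.

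**Figure D4:**
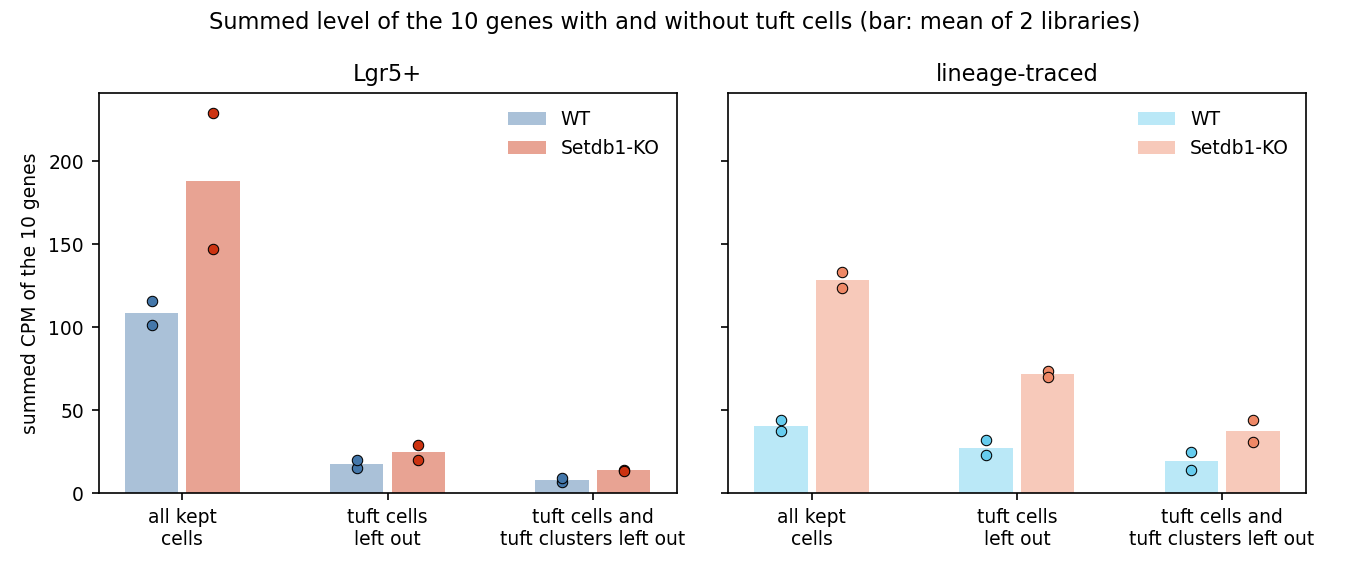
Summed CPM of the 10 genes over all kept cells, without called tuft cells, and without called tuft cells and tuft clusters, for the Lgr5+ (left) and lineage-traced (right) sorts, with a point per library and a bar at the mean of 2 libraries. In the lineage-traced sort the WT libraries fall from 44.0 and 37.5 CPM to 14.0 and 24.8 CPM and the Setdb1-KO libraries from 124 and 133 CPM to 44.3 and 30.7 CPM.

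Tuft cells of the 2 sorts were also set side by side in WT. Gng13 was the only one of the 8 tested genes that passed (log2 fold change 1.37 ± 0.28 SE, lineage-traced over Lgr5+, edgeR adjusted p = 2.84e-05), where 13.7% of 3931 tested genes did, so that the count is near the share of all genes. Its call was lost in 3 of the settings tried, among them without lineage-traced WT 1, which left 14 tuft cells on that side (0.28), and without the filter on low counts (0.93, edgeR adjusted p = 0.062). Rgs13 had −0.80 ± 0.31 (edgeR adjusted p = 0.066), and the other estimates ran from −0.58 (Ptgs1) to 0.31 (Trpm5). In a test of all 8 libraries with genotype as a term, 3 of the 8 genes passed, again near the share of all genes (31.2% of 5187): Gng13 (1.33, edgeR adjusted p = 5.33e-08) and Trpm5 (0.69, edgeR adjusted p = 0.011) were higher and Rgs13 (−0.86, edgeR adjusted p = 0.0018) was lower in lineage-traced tuft cells. The sorts also differ in reporter allele, depth and Paneth cell RNA, and these cannot be told apart.

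The genes were also scaled to the UMIs of the 19 tuft markers, which leaves RNA of other cells out of the denominator but not out of the counts of a gene. The same markers chose the tuft cells, so these values are a description. Per 1000 UMIs of the 19 tuft markers, Gng13 had 40.5 to 57.5 UMIs in the Lgr5+ and 105 to 147 in the lineage-traced libraries. Rgs13 had 241 to 260 and 73.7 to 179, Avil 94.5 to 108 and 52.6 to 86.8, and Il25 3.13 to 4.31 and 0 to 1.89. The Il25 value rests on 1 lineage-traced UMI. Trpm5 overlapped between the sorts, with 28.0 to 38.5 and 31.6 to 61.1. The share of all genes that separate the sorts on this scale was not computed, so nothing particular to these genes is read from it.

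**Figure D5:**
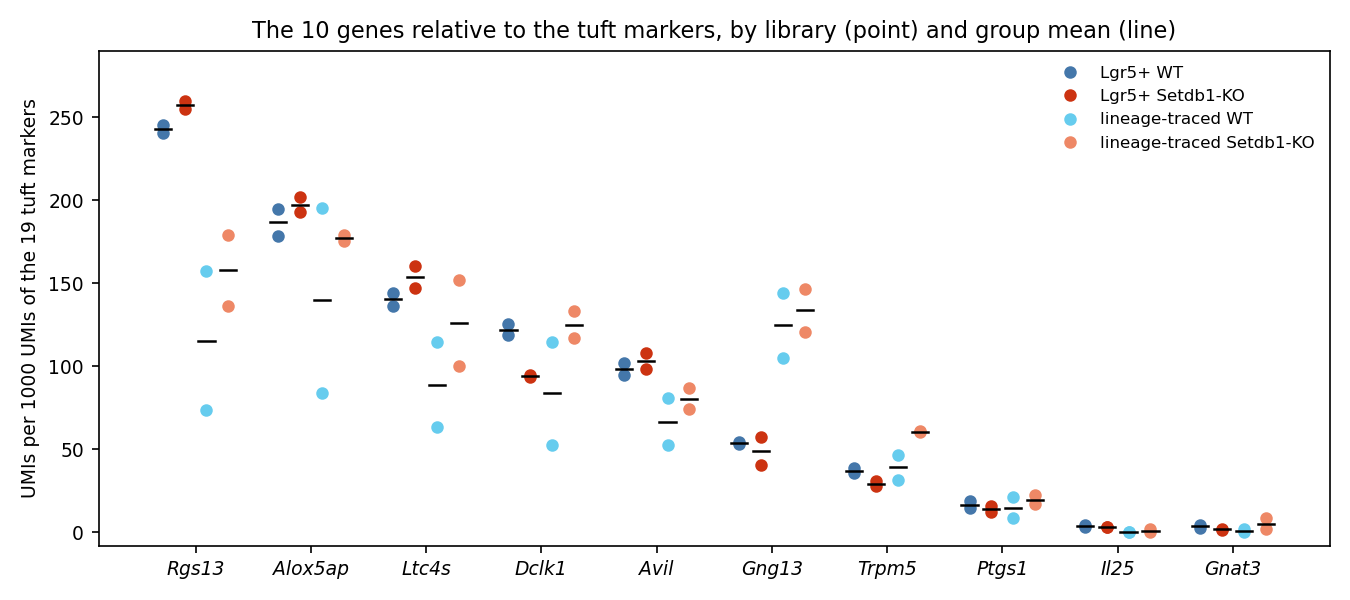
UMIs of each of the 10 genes per 1000 UMIs of the 19 tuft markers in tuft cells, with a point per library and a line at the mean of each group of 2. Gng13 is higher in all lineage-traced libraries (105 to 147) than in all Lgr5+ libraries (40.5 to 57.5), and Rgs13 is lower.

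The wider pathways were covered by 61 further genes in 6 lists, which partly overlap the tuft markers. Within tuft cells 0 of 40 tested genes passed in the Lgr5+ and 0 of 18 in the lineage-traced sort, where 0.266% and 1.62% of all tested genes did. Over all kept Lgr5+ cells 0 of 52 passed, where 1.34% of all tested genes did. These counts are near the shares of all genes. Over all kept lineage-traced cells 4 of 42 were higher, where 1.54% of all tested genes were, and 3 were lower, near the 7.19% of all tested genes that were lower. List genes that are also tuft markers, such as Pou2f3, Spib and Plcg2, took part in the tuft call, so their values within tuft cells are a description. Of the eicosanoid list, Hpgds, the synthase of prostaglandin D2, rose by 1.02 and Hpgd, which degrades prostaglandins, fell by 1.12 on the log2 scale. Hmx2, a homeobox factor, rose by 1.99 and Retnlb, a goblet cell product induced in type 2 responses, by 2.74, while Ccdc28b rose by 0.97. The microvillus proteins Vil1 and Espn fell by 0.97 and 1.5 over all kept cells. Within tuft cells of this sort Espn stood at 275 and 165 CPM in WT and at 509 and 403 CPM in Setdb1-KO, and the genotypes overlapped for Vil1. Over all kept lineage-traced cells the 7 tested genes of the taste cascade all missed the threshold, with a median of 0.23. The largest of them was Plcb2, the phospholipase C of taste cells, with 1.44 ± 0.50 SE (edgeR adjusted p = 0.11), and Ffar3, a receptor for short-chain fatty acids, had 0.91 ± 0.54. Alox5, the enzyme that Alox5ap serves, had 1.07 (edgeR adjusted p = 0.10), and Pou2f3 had 0.96 (edgeR adjusted p = 0.32).

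Between tuft cells of the 2 WT sorts 6 of 33 tested genes of the lists passed, near the 13.7% of all tested genes, so the count says nothing particular to the lists. Ptges3 was higher in lineage-traced tuft cells (log2 fold change 1.25). So was Spib (1.45), but it is one of the markers that chose the tuft cells, and its value is a description only. The 4 lower genes were Hmx2 (−3.35 ± 0.73 SE), Sox4 (−3.02 ± 0.64), Il13ra1 (−1.46 ± 0.46) and Krt8 (−1.24). In tuft cells of lineage-traced WT 1 and 2, Hmx2 had 12.5 and 55.1 CPM, Sox4 37.4 and 0 CPM, and Il13ra1 112 and 55.1 CPM. The tuft cells of these libraries held 80127 and 18159 UMIs in all, so the fold changes of Hmx2, Sox4 and Il13ra1 rest on few UMIs there. Averaged over the 4 WT libraries of both sorts, Gnb1, a G protein beta subunit (221 CPM), Itpr2, a calcium release channel (182), and Plcg2, a phospholipase C (154), were the most abundant further genes of the taste list in tuft cells. Hpgds (157) and Pla2g4a, the phospholipase that frees arachidonic acid (114), followed the widely expressed Ptges3 (207) in the eicosanoid list, an order that did not hold in the Lgr5+ WT libraries, where Hpgds had 219 and 206 CPM, Pla2g4a 168 and 172 CPM and Ptges3 145 and 149 CPM. The cytokine receptor subunits Il13ra1 (212 CPM) and Il17rb (30.2) and the signal transducer Stat6 (44.5) had the highest means of the cytokine list. Il17rb is also a tuft marker, and its order with Il4ra differed between libraries. Il17rb had 24.5 and 21.3 CPM in Lgr5+ WT and 74.9 and 0 CPM in lineage-traced WT. Il4ra had 15.1 and 25.5 CPM and 12.5 and 55.1 CPM. Ehf (273), Sox9 (268) and Spib (261) had the highest mean of the transcription factors, while in the Lgr5+ WT libraries Sox4 (356 and 249.8 CPM), Ehf (338 and 261 CPM) and Hmx2 (269.7 and 239.9 CPM) were above Spib (155 and 156 CPM). The keratins Krt18 (6594) and Krt8 (3359) and the tubulin Tuba1a (503) had the highest mean of the cytoskeleton list. Of the relatives of Rgs13 and Dclk1, Rgs2 stood at 103 CPM, Rgs16 at 1.30 and Dclk2 at 0.471.

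Across 63 sums of 1 cell class in 1 library, the gene whose level was most like the mean of the 10, on the log2(CPM + 1) scale, among 13094 ranked genes and outside the 10 was Alox5 (r = 0.970). Sh2d6, one of the tuft markers, followed with r = 0.969, then Rgs22 (0.963), Pik3r5 (0.960) and Siglecf (0.959). The 10 are part of the mean, so each was set against the mean of the other 9, where r ran from 0.795 for Il25 to 0.974 for Rgs13. The sums share libraries, each holds at least 20 cells, and 7 of them are tuft cells, since lineage-traced WT 2 had too few.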

How the data were processed

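Single-cell libraries were made by the authors from sorted ileal crypt cells with a 3′ kit. The deposited values are raw UMI counts per gene and barcode, not normalized. The submitters' processing notes name Cell Ranger 6.1.1, Seurat 5.0.3 and the mouse build mm10. The 10 genes and all gene lists were chosen with earlier results of these data known.

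Barcodes were kept by the limits given in the report. A cell was called a tuft cell with at least 20 UMIs of 19 tuft markers per 10000 UMIs and at least 3 distinct markers. Other classes were called from their own markers in the same way, with a minimum set for each list. Scrublet marked 0 to 2 doublets in 7 of 8 libraries and 1621 in Lgr5+ Setdb1-KO 2 at its automatic threshold, so none were removed in the results given, and an expected 0.8% per 1000 cells was removed as an alternative. Counts were summed per library over tuft cells or over all kept cells. They were tested with edgeR 4.0.16 (quasi-likelihood, TMM, filterByExpr) in R 4.3.3, with Benjamini-Hochberg adjustment over all tested genes and a threshold of 0.05, and with DESeq2 1.42.0 as an alternative. Tuft shares were tested by an exact permutation test (scipy 1.17.1) and clusters came from scanpy 1.11.5, without the 10 genes. All 10 genes were named. Further genes were named where they passed the test in a list, were among the 3 most abundant of a list or had a pattern most like the 10. Enterocyte counts of Ltc4s and Rgs13, Alox5, Pou2f3, Plcb2 and Ffar3 were named after their values were seen. The tests were checked on simulated counts. Intervals and limits cover counting error only.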

Additional observations from a re-analysis of the deposited data

Results flagged for a closer look

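The Gnat3 libraries were ordered in opposite ways in the 2 sorts. In lineage-traced tuft cells its mean was 4.74 times as high in Setdb1-KO as in WT, with both Setdb1-KO libraries (12.7 and 46.4 CPM) above both WT libraries (12.5 and 0 CPM), while in Lgr5+ tuft cells both Setdb1-KO libraries (13.7 and 15.0 CPM) were below both WT libraries (32.1 and 17.0 CPM). This order is a description, not a test, and the share of all genes ordered in this way was not computed. The 12.7 and 12.5 CPM are 1 UMI each, out of 78538 and 80127 tuft cell UMIs, so their order comes from these totals alone. The lineage-traced values rest on 1 and 0 UMIs in WT and 1 and 16 UMIs in Setdb1-KO, and the ratio was 2.04 without Setdb1-KO 2 and 7.43 without Setdb1-KO 1. The interaction term of edgeR over all 8 libraries gave 2.68 ± 1.34 SE on the log2 scale with an adjusted p of 0.68, so the difference did not pass the test.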

How the results depend on the processing

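Within tuft cells of either sort and for the difference between sorts, none of the alternatives tried made any of the 10 genes pass. The number of all genes called moved from 17 in Lgr5+ tuft cells to 4 (DESeq2), 69 (no low-count filter), 3 (higher UMI minimum), 5 (mt- limit of 10%), 28 (stricter tuft call) and 5 (tuft clusters), and to 28 to 121 with 1 library left out; from 16 in lineage-traced tuft cells to 46 (tuft clusters) and 13 to 36; and from 36 for the difference to 11 (DESeq2), 18 (stricter call), 23 (tuft cells without another class) and 14 to 34. Over all kept Lgr5+ cells the genes passing among the 10 went from 0 to 4 (DESeq2), 3 (library size alone) and 0 to 4 with 1 library left out, and all calls from 183 to 502, 363, 35 (no filter) and 65 to 527. Over all kept lineage-traced cells the 7 passing genes became 2 without tuft cells, 0 without tuft clusters as well and 2 to 8 with 1 library left out, and the 1066 calls became 3807 (library size alone) and 586 to 2449. Between WT sorts the 1 passing gene became 2 (median-of-ratios size factors, Scrublet doublets removed, tuft clusters), 3 (library size alone, all 8 libraries) and 1 to 4 with 1 library left out, and the 539 calls became 277 (DESeq2), 928, 148 (stricter call), 940 (tuft clusters), 1617 (all 8 libraries) and 186 to 569. The cause was not tested. Tuft shares stayed higher in Setdb1-KO, by 0.522 to 1.48 and 0.221 to 1.15 percentage points with 1 library left out.

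The replicate numbers are only numbers in the labels. Libraries of the same number deviated together over all kept lineage-traced cells (r = 0.52), less in tuft cells (0.17 and 0.10) and not over all kept Lgr5+ cells (−0.12). With the replicate number as a block, 0 genes passed within tuft cells (34 and 38 calls) and over all kept Lgr5+ cells (51 calls), 8 passed over all kept lineage-traced cells (2579 calls), and 0 between WT sorts (215 calls), where Gng13 had 1.18 with an edgeR adjusted p of 0.11. Crossing the numbers of the Lgr5+ libraries, chosen after seeing the data, gave 6 passing genes and 980 calls.

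Some estimates changed sign, none of them past the threshold before or after. In Lgr5+ tuft cells Ptgs1 became −0.021 (library size alone), −0.015 (replicate block), −0.012 (mt- limit of 10%), −0.036 (higher UMI minimum), −0.046 (doublets removed), −0.19 (stricter call) and −0.059 (without another class), Gng13 −0.11 and Il25 −0.040 (stricter call), and Trpm5 0.036 (clusters). In lineage-traced tuft cells Gng13 became 0.13 (library size alone), 0.32 (no filter) and 0.15 (clusters), Alox5ap −0.038 (UMI minimum), −0.12 (clusters) and −0.12 (without another class), Avil −0.035 (UMI minimum), −0.15 (stricter call) and −0.13 (clusters), and under clusters Dclk1 −0.056, Trpm5 −0.31 and Rgs13 −0.16. For the difference between sorts Il25 became −0.69 (DESeq2) and −0.85 (clusters), Rgs13 −0.025 (median-of-ratios), −0.011 (library size alone) and −0.42 (clusters), Alox5ap 0.11 (replicate block) and 0.24 (stricter call), Avil 0.071 (replicate block) and 0.21 (without another class), Gng13 −0.049 (stricter call) and −0.018 (without another class), and under clusters Trpm5 −0.21 and Ltc4s −0.27. Between WT sorts Trpm5 became −0.13 (no filter), Alox5ap 0.10 (without another class), and Dclk1 0.039 and Ptgs1 0.20 (all 8 libraries).

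With 1 library left out, the log2 estimates in Lgr5+ tuft cells ran from −0.27 to 0.050 (Dclk1), −0.31 to 0.15 (Trpm5), −0.18 to 0.30 (Il25) and −0.36 to 0.36 (Ptgs1). In lineage-traced tuft cells they ran from −0.20 to 0.41 (Gng13), −0.24 to 1.14 (Alox5ap), −0.11 to 1.15 (Rgs13) and −0.13 to 0.66 (Avil), and over all kept Lgr5+ cells from −0.33 to 0.12 (Gnat3). For the difference between sorts the ranges were −0.084 to 1.16 (Gng13), −0.046 to 5.56 (Il25), −0.39 to 1.61 (Alox5ap), −0.14 to 1.54 (Ltc4s), −0.26 to 1.62 (Rgs13) and −0.30 to 1.13 (Avil), and between WT sorts −0.92 to 0.44 (Trpm5) and −1.83 to 0.15 (Alox5ap). A group left with 1 library was assumed to vary like the others. Depth limits Gnat3, Il25 and, in lineage-traced tuft cells, Ptgs1.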
